A study of Mus musculus with 25 samples.

Results

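Krüppel-like factors (KLFs) are zinc finger transcription factors. Here 10 were examined in cells sorted as neurons from mouse sensorimotor cortex: *Klf2*, *Klf3*, *Klf4*, *Klf6*, *Klf7*, *Klf9*, *Klf10*, *Klf12*, *Klf13* and *Klf16*. They were chosen by gene symbol, with earlier results of these data known. The table of normalized counts held 8 of the 10, among 9931 genes with a symbol. *Klf12* and *Klf16* had no row, by symbol or by Ensembl identifier, and were not analysed here.

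KLFs share the zinc fingers at the C-terminus of the protein, with which they bind GC-rich and CACCC sequences, and they differ in their N-terminal parts, through which they activate or repress transcription. In neurons of the central nervous system, members of the family act on axon growth in opposite directions. *Klf6* and *Klf7* are known to promote the growth of neurites, and *Klf4* and *Klf9* to suppress it. Corticospinal neurons lose much of their capacity for axon growth as they mature, which is why the balance between these members is of interest after an injury of the spinal cord.

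All mice, in both genotypes, were of strain C57BL/6, with *Rest* flanked by loxP sites and a tdTomato reporter that Cre switches on. The cortex was injected with AAV-Syn-GFP, a virus that makes GFP under the neuronal synapsin promoter (wild-type, WT), or with AAV-Syn-Cre, whose recombinase deletes *Rest*, the gene of a transcriptional repressor, in neurons (REST cKO). Adult mice then underwent a sham operation or a complete crush of the thoracic cord (spinal cord injury, SCI), and cells sorted by flow cytometry on GFP or tdTomato were sequenced with a kit that reads the 3′ end of mRNAs. The virus, the sorted reporter and the deletion of *Rest* therefore cannot be told apart. Of the 25 libraries in 8 groups, 4 were WT sham and 3 were REST cKO sham. Each of the WT injury groups, taken on days 1, 3 or 7, had 3 libraries, and the REST cKO injury groups had 2 on day 1, 4 on day 3 and 3 on day 7. The labels give 3 batches of 10, 10 and 5 libraries. Of the WT groups only day 3 had a library in batch 3, and REST cKO day 1 had none in batch 1. Batch and genotype were thus mixed in part. The WT libraries of day 7 were all from females, and the REST cKO libraries of sham and day 7 all from males. At day 7 sex and genotype therefore cannot be told apart, and in sham only in part, since WT sham held both sexes.

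Values are log2 normalized counts, from -4.82 to 5.16 over the table, and 1 unit is a doubling. The share of values under -2 per library ran from 2.77% to 29.5%, highest in WT day 3 replicate 5. This library held the highest value of all 25 for *Klf2*, *Klf4* and *Klf7*, the lowest for *Klf10*, and the highest endothelial mean, 2.84, and day 3 differences from WT are also given without it. *Rest* itself, the targeted gene, was -1.55 to -0.26 in WT sham and -2.65 to -0.52 in REST cKO sham, and -1.35 to 0.71 against -0.43 to -0.40 at day 1. It was 0.56 to 2.88 in WT and -1.61 to -0.04 in REST cKO at day 3, and 0.26 to 2.74 against -1.21 to -0.33 at day 7, so the genotypes did not overlap at these last times. Reads at the 3′ end need not lie in the deleted part, and these values are then no direct check of the deletion. All 7 neuronal markers examined were present, with library means of the list from 0.09 to 2.57. Markers of other cells were present as well: the library mean was 2.77 to 3.46 for 10 microglial genes, 1.16 to 2.84 for 10 endothelial genes, 0.56 to 2.58 for 6 astrocytic genes and -1.06 to 2.63 for 10 oligodendrocytic genes. The lowest microglial mean lay above the highest neuronal mean, so the KLF values may not be those of neurons alone. Of 5 markers of deep-layer projection neurons, 2 were in the table.

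The values of *Klf4* need a caution of their own. Before deposit, 2 components of sequencing quality were regressed out of the table, and such values have a correlation of 0 with each component. This held for 7 of the 8 KLF genes, and *Klf4* was the exception, with a correlation of 0.0937 with the first component. It was 1 of 140 genes with a correlation over 1e-05 with either component. *Rest* had a correlation of 0.326 with the first and -0.162 with the second component, so its values above carry the same caution. All changes of sign, of whole steps up to 3 units, or of both together in up to 3 libraries were tried on *Klf4*. A single set brought its largest correlation with a component to 1.03e-10, and the next best set left 3.11e-05. In that set WT sham replicate 3 changed from 0.14 to -0.14, REST cKO sham replicate 23 from 0.84 to -0.84, and REST cKO day 3 replicate 15 from 1.62 to 0.62. Why the deposited values depart from this was not tested. Results for *Klf4* are given with the values as deposited and with these 3 values changed.

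The genes lie on 8 chromosomes (GRCm38): *Klf6* at chr13:5861482-5870394 and *Klf9* at chr19:23141226-23168134 on the plus strand, *Klf7* at chr1:64029447-64122282 and *Klf4* at chr4:55527143-55532466 on the minus strand, *Klf2* at chr8:72319033-72321656 and *Klf3* at chr5:64803388-64832901 on the plus strand, and *Klf10* at chr15:38291463-38300706 and *Klf13* at chr7:63886351-63938915 on the minus strand. RefSeq promoters (GRCm38.p6, 250 bases before to 50 after the start) were available for 7 of the 8 measured genes. Because KLFs bind GC boxes and CACCC boxes, these letters were counted in the promoters of the genes themselves, as GGGCGG and CACCC on both strands, with overlapping matches counted. The 120 bases nearest to the start that lie in no annotated exon are shown for the growth-promoting and the growth-suppressing members, 5′ to 3′ on the strand of the gene, with GC boxes and CACCC boxes on either strand in capitals. The RefSeq start of *Klf7* lies inside the gene as annotated above, downstream of its outermost end, so the stretch shown for it lies within that span.
Klf6 (chr13:5861362-5861481, plus strand): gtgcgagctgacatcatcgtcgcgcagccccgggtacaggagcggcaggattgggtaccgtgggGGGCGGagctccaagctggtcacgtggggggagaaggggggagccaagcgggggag
Klf7 (chr1:64121492-64121611, minus strand): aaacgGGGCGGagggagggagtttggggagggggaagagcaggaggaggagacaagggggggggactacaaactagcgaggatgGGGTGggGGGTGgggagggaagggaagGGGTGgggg
Klf4 (chr4:55532476-55532595, minus strand): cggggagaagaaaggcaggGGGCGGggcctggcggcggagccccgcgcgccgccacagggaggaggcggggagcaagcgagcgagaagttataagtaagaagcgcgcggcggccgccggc
Klf9 (chr19:23141106-23141225, plus strand): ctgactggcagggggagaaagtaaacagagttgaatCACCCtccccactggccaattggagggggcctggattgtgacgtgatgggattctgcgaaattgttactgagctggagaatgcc

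In the whole window of 300 bases, *Klf4* held 4 GC boxes, *Klf6* and *Klf7* 1 each and *Klf9* 0, while *Klf7* held 3 CACCC boxes, *Klf9* 1, and *Klf4* and *Klf6* 0. *Klf3* held 6 GC boxes and 5 CACCC boxes, *Klf13* 3 and 1, and *Klf2* 2 and 1. A GC box stood in 35.7% and a CACCC box in 57.5% of 32851 RefSeq promoters of this length. The promoters of *Klf3* and *Klf4* had a GC content of 76.7% and 74.3%, above that of 97.3% and 95.6% of all promoters, and those of *Klf7* (58.3%) and *Klf6* (63%) were lower. The letters TTCAGCACC, the left part of the element that REST binds, stood in 0.371% of all promoters and in 0 of the 7. Those of its right part, GGACAG, stood in 22.2% of all promoters and, of the 7, in that of *Klf13*.

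None of the 8 genes passed limma's test in any comparison. Over 15 comparisons of groups, 0 of 8 had an adjusted p-value under 0.1, in comparisons that called from 0% to 0.0302% of all genes, and the lowest adjusted p of a member was 0.602. An unadjusted p under 0.05 was met in 9 of the 120 tests of members (7.5%), against 6.31% of the tests of all genes. The differences described next are therefore sizes with their errors, and not called changes.

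*Klf6*, one of the growth-promoting members, varied little between libraries. Its residual SD, the spread that groups and components leave, was 0.454, and 9.12% of genes had a lower one. In WT it was 1.93, 1.48, 2.08 and 1.79 in sham, 1.27, 1.91 and 2.03 at day 1, 1.70, 2.06 and 1.88 at day 3, and 2.19, 2.28 and 2.21 at day 7. All WT libraries of day 7 lay above all WT sham libraries, and those of the earlier days overlapped with sham. The REST cKO values were 1.74, 1.14 and 3.12 in sham, 2.40 and 2.08 at day 1, 1.81, 2.07, 2.22 and 2.57 at day 3, and 2.66, 2.55 and 2.16 at day 7. The sham libraries of this genotype spanned the range of all the others.

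The group means of *Klf6* ran, in rising order, from WT day 1 (1.74 ± 0.411, SD, n = 3) through WT sham (1.82 ± 0.256, n = 4), WT day 3 (1.88), REST cKO sham (2.00 ± 1.02, n = 3), REST cKO day 3 (2.17), WT day 7 (2.23 ± 0.0494, n = 3) and REST cKO day 1 (2.24) to REST cKO day 7 (2.46 ± 0.259, n = 3). Neighbours in this order overlapped in each case. WT day 7 minus WT sham was 0.47 in the fit (standard error 0.384, adjusted p = 0.862 from limma), with 0.533 within batch 1 and 0.276 within batch 2. Cell markers of this comparison are given with *Klf2* below. At day 1 REST cKO lay above WT in every library, by 0.65 (standard error 0.510, adjusted p = 0.999). A single batch held both groups, with a difference of 0.373, and without WT day 1 replicate 1 the difference was 0.41. Between the same groups 9 of 10 endothelial (median 0.44), 4 of 6 astrocytic (0.45), 6 of 10 microglial (0.04), 2 of 7 neuronal (-0.39) and 2 of 10 oligodendrocytic markers (-0.59) were positive, against 5801 of 9931 genes. Their part in the day 1 genotype differences of *Klf6* and, below, of *Klf4* and *Klf9* was not tested.

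*Klf7*, which promotes axon outgrowth and the expression of neurotrophin receptors in developing neurons, was highest in WT at day 3. In WT it was 2.53, 1.87, 2.77 and 1.93 in sham, 3.12, 2.07 and 1.84 at day 1, 3.27, 2.42 and 3.00 at day 3, and 1.69, 2.13 and 2.42 at day 7. The day 3 libraries overlapped with those of every other time. The REST cKO libraries were at 2.81, 2.09 and 1.43 in sham, 3.13 and 1.94 at day 1, 2.11, 2.07, 1.70 and 1.73 at day 3, and 2.24, 1.52 and 2.80 at day 7. At day 3 the lowest WT library stood above the highest REST cKO library.

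Group means of *Klf7* rose from REST cKO day 3 (1.90 ± 0.214, SD, n = 4) over WT day 7 (2.08), REST cKO sham (2.11), REST cKO day 7 (2.19), WT sham (2.28 ± 0.446, n = 4), WT day 1 (2.34) and REST cKO day 1 (2.53) to WT day 3 (2.90 ± 0.434, n = 3), with overlap between all neighbours. The genotypes differed at day 3 by -1.17, REST cKO minus WT (standard error 0.431, unadjusted p = 0.0117, adjusted p = 0.680 from limma). The difference was -1.17 within batch 1, -0.533 within batch 2 and -1.27 within batch 3. Without WT day 3 replicate 5 it was -0.97 (adjusted p = 0.909). In this comparison 1 of 7 neuronal (median -0.40) and 2 of 6 astrocytic markers (-0.26) were positive, against 5207 of 9931 genes, and their part in the result was not tested.

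*Klf4*, a suppressor of axon growth best known as a reprogramming factor, was highest at day 3 in both genotypes. As deposited it was 0.14, 0.40, 0.64 and 0.44 in WT sham, 0.72, 0.48 and 0.83 at day 1, 2.41, 2.16 and 1.07 at day 3, and 0.82, -0.18 and -1.09 at day 7. All 3 WT libraries of day 3 lay above all sham and day 1 libraries, and day 7 overlapped with sham. In REST cKO it was 0.98, 1.28 and 0.84 in sham, 0.99 and 1.06 at day 1, 2.39, 1.62, 2.08 and 1.77 at day 3, and 0.41, 0.81 and 1.26 at day 7. Here too the day 3 libraries stood above those of every other time, until replicate 15 is set to 0.62.

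In WT the fitted difference of *Klf4* between day 3 and sham was 1.64 (standard error 0.631, unadjusted p = 0.0152, adjusted p = 0.629 from limma). With the 3 values changed it became 1.77 (standard error 0.745, adjusted p = 0.655), with no overlap either way. Within batches 1 and 2 it was 2.14 and 1.62 as deposited. Without WT day 3 replicate 5, which held the highest value, it was 1.39 (adjusted p = 0.922). In REST cKO the same difference was 0.77 (standard error 0.624, adjusted p = 0.999), without overlap as deposited and with overlap after the change, at 1.02 (standard error 0.736, adjusted p = 0.999). Without REST cKO sham replicate 6 it was 0.47. REST cKO sham stood above WT sham in every library as deposited, by 0.82 (standard error 0.652, adjusted p = 0.872), and overlapped with it after the change, with a difference of 0.40 (standard error 0.769, adjusted p = 0.977). At day 1 REST cKO was above WT in every library, by 0.51 (standard error 0.760, adjusted p = 0.999), or by 0.62 after the change. One batch held both of these groups and gave 0.155, and without WT day 1 replicate 8 the fitted value was 0.29. In rising order of the deposited means the groups were WT day 7 (-0.15 ± 0.952, SD, n = 3), WT sham (0.41 ± 0.208, n = 4), WT day 1 (0.68), REST cKO day 7 (0.83), REST cKO day 1 (1.02), REST cKO sham (1.03), WT day 3 (1.88 ± 0.714, n = 3) and REST cKO day 3 (1.97 ± 0.34, n = 4), and neighbours overlapped.

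*Klf9*, a suppressor of neurite growth that thyroid hormone and glucocorticoids induce, was lowest in REST cKO at day 1 and highest in WT at day 1 by group mean. In WT it was 0.77, 2.36, 2.64 and 2.13 in sham, 3.15, 3.02 and 2.30 at day 1, 1.90, 1.61 and 2.94 at day 3, and 2.54, 2.18 and 1.73 at day 7. A single sham library, replicate 3, lay far below the rest, and the other sham libraries overlapped with day 1. In REST cKO it was 2.98, 2.62 and 2.47 in sham, 1.95 and 1.52 at day 1, 2.49, 2.01, 3.10 and 2.60 at day 3, and 2.81, 3.29 and 1.68 at day 7. Both REST cKO libraries of day 1 lay below all REST cKO sham libraries and below all WT libraries of day 1.

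The difference of *Klf9* between day 1 and sham was 1.01 in WT (standard error 0.448, unadjusted p = 0.0333, adjusted p = 0.726 from limma) and -0.90 in REST cKO (standard error 0.502, adjusted p = 0.924). Without WT sham replicate 3 the WT value was 0.59, and it was 1.52 within batch 1 and -0.0818 within batch 2. In REST cKO it was -0.675 within batch 2 and -0.951 within batch 3. REST cKO minus WT at day 1 was -1.35 (standard error 0.576, unadjusted p = 0.0272, adjusted p = 0.999), and it was -0.356 within the only batch that held both. The interaction of genotype and injury at day 1 was -1.90 (standard error 0.661, unadjusted p = 0.00794, adjusted p = 0.706), the lowest unadjusted p of any member. Group means rose from REST cKO day 1 (1.74 ± 0.301, SD, n = 2) over WT sham (1.98 ± 0.827, n = 4), WT day 3 and WT day 7 (2.15 each), REST cKO day 3 (2.55), REST cKO day 7 (2.59) and REST cKO sham (2.69 ± 0.26, n = 3) to WT day 1 (2.82 ± 0.454, n = 3), and neighbours overlapped.

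Over the 25 libraries, *Syt1*, 1 of the 7 neuronal markers, was among the 3 genes most alike to *Klf9* (r = 0.703). As a list, the neuronal markers followed *Klf9* in some of the groups above and not in others. Their library mean was 0.09 in WT sham replicate 3, where *Klf9* was lowest, and 1.26 to 1.78 in the other WT sham libraries. It was 1.39 to 2.28 in WT at day 1, 1.90 to 2.57 in REST cKO sham, and 1.76 and 1.21 in REST cKO at day 1. At day 3 they were 1.26 to 1.68 in REST cKO, below the sham libraries of that genotype, where the difference of *Klf9* from sham was -0.000431 (standard error 0.473). In WT at day 1 the library with the highest *Klf9*, 3.15, had the lowest neuronal mean, 1.39. For the interaction at day 1, 0 of 7 neuronal markers (median -1.49, 3 with an unadjusted p under 0.05) and 0 of 6 astrocytic markers (median -0.72, 1 under that p) had positive differences, against 5585 of 9931 genes. The same count was 1 of 10 for oligodendrocytic (median -0.65), 3 of 10 for endothelial (-0.30) and 9 of 10 for microglial markers (0.30, 3 under that p). The part of these markers in the differences of *Klf9* was not tested.

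**Figure D1:**
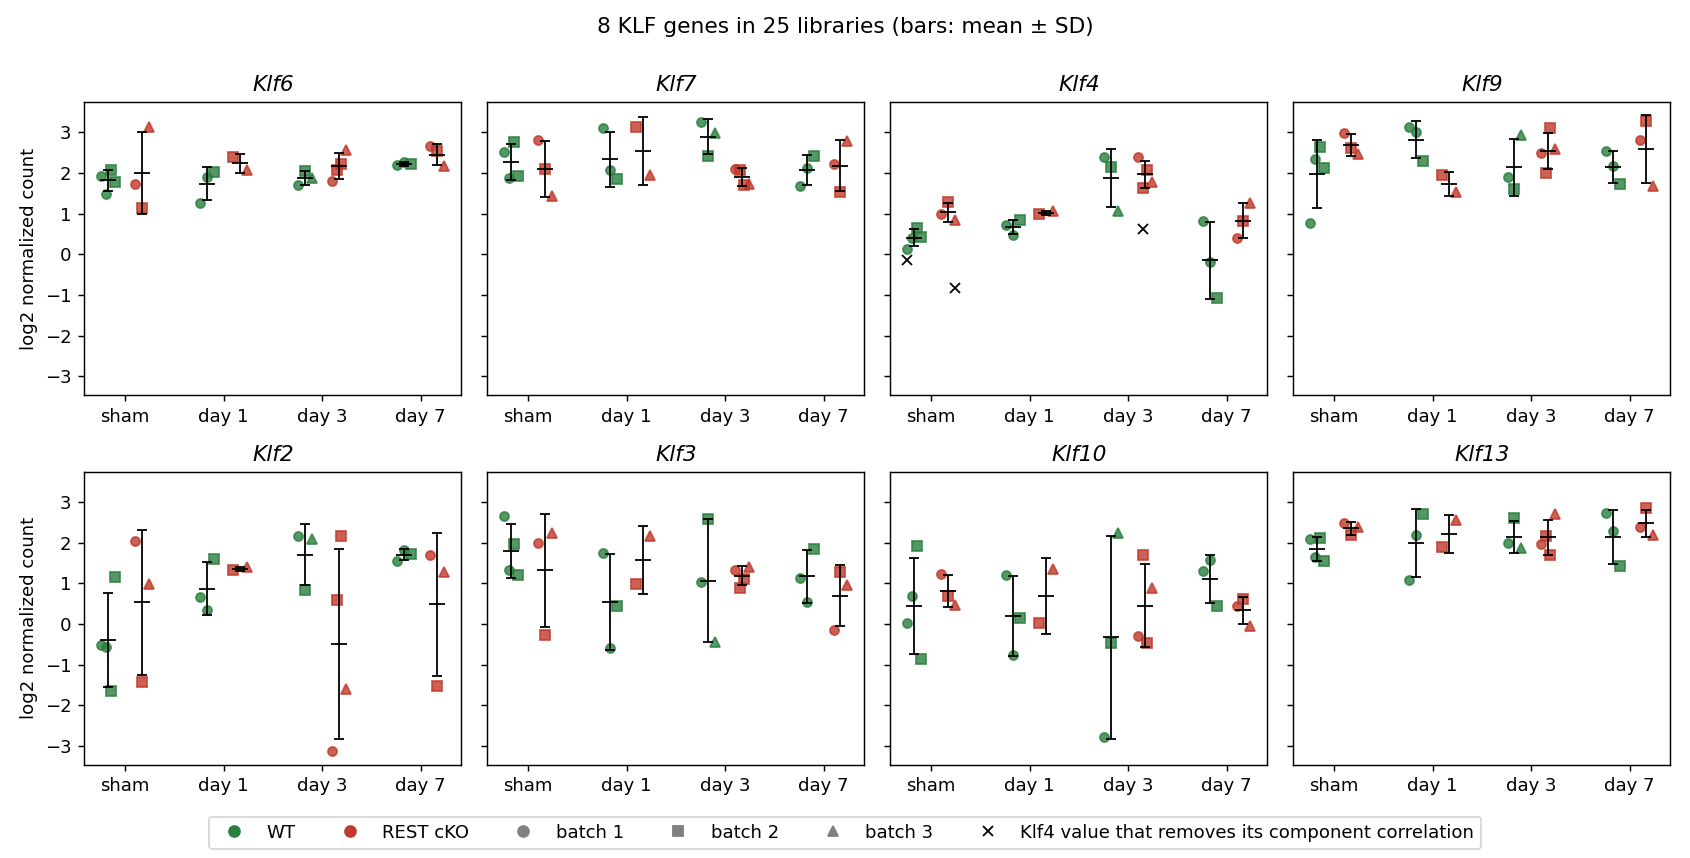
Log2 normalized counts of the 8 KLF genes by time after injury, each point 1 library, coloured by genotype and shaped by batch, with bars at the mean ± SD of each group. *Klf4* is highest at day 3, *Klf7* in WT at day 3 lies above REST cKO, and *Klf2* spans from -3.14 to 2.18, and the crosses mark the 3 changed *Klf4* values at -0.14, -0.84 and 0.62.

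Over all times together, the 4 growth-related members differed little between injured and sham libraries. The difference of all SCI groups from both sham groups was 0.19 for *Klf6* (standard error 0.222, adjusted p = 0.949 from limma), 0.11 for *Klf7* (0.236, adjusted p = 0.977), 0.31 for *Klf4* (0.332, adjusted p = 0.947) and 0.05 for *Klf9* (0.251, adjusted p = 0.996). With the 3 values changed, the difference of *Klf4* was 0.56 (standard error 0.392, adjusted p = 0.904). Averaged over the 4 times, REST cKO minus WT was 0.34 for *Klf6* (standard error 0.208, adjusted p = 0.695), -0.15 for *Klf7* (0.221, adjusted p = 0.925), 0.57 for *Klf4* (0.310, adjusted p = 0.634) and 0.07 for *Klf9* (0.235, adjusted p = 0.969). After the change the genotype difference of *Klf4* was 0.40 (standard error 0.366, adjusted p = 0.834). The directions of *Klf6*, *Klf7* and *Klf9* for injury, and of *Klf7* and *Klf9* for genotype, turned in at least 1 alternative or on leaving out 1 library. The members called in both averaged comparisons numbered 0 at either threshold, against 0.0201% of all genes by adjusted p and 5.97% by unadjusted p for injury, and 0.0101% and 8.53% for genotype.

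To set the growth-promoting members against the suppressing ones, the mean of *Klf4* and *Klf9* was subtracted from the mean of *Klf6* and *Klf7* in each library. Since counts of different genes need not be comparable, the sign of this balance has no meaning by itself and its use is between groups. In WT it was 1.77, 0.29, 0.79 and 0.58 in sham, 0.26, 0.24 and 0.37 at day 1, 0.33, 0.36 and 0.43 at day 3, and 0.26, 1.20 and 1.99 at day 7. The WT libraries of days 1 and 3 lay close together between 0.24 and 0.43, where the lowest sham library was at 0.29, and those of day 7 spread from 0.26 to 1.99. The balance of REST cKO was 0.29, -0.34 and 0.62 in sham, 1.30 and 0.72 at day 1, -0.48, 0.25, -0.63 and -0.03 at day 3, and 0.84, -0.01 and 1.01 at day 7. At day 1 the REST cKO libraries lay above, and at day 3 below, those of WT. The mean of *Klf6* and *Klf7* alone was 2.49, 2.24 and 2.44 in WT, the first in replicate 5, and 1.96 to 2.15 in REST cKO at day 3.

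The balance was 0.86 ± 0.642 (SD, n = 4) in WT sham, and the fitted differences from it were -0.69 (standard error 0.437) at day 1, -0.33 (0.467) at day 3 and 0.38 (0.424) at day 7. In REST cKO, where sham was at 0.19 ± 0.486 (SD, n = 3), the differences from sham were 0.76 (standard error 0.491), -0.56 (0.462) and 0.26 (0.478). REST cKO minus WT was -0.50 (standard error 0.482) without injury, then 0.95 (0.563), -0.73 (0.449) and -0.62 (0.448) on days 1, 3 and 7. At day 7 all WT libraries were from females and all REST cKO libraries from males. The largest value against its error was the interaction of genotype and injury at day 1, 1.45 (standard error 0.645). For the members it was -1.90 for *Klf9*, 0.34 for *Klf6*, 0.35 for *Klf7* and -0.31 for *Klf4* as deposited. *Klf9* thus gave most of it. The marker lists for this interaction are given with *Klf9* above, and their part in the balance was not tested. At days 3 and 7 the interaction was -0.23 (standard error 0.728) and -0.13 (0.673), and over all SCI groups against sham the balance differed by -0.03 (0.245). Averaged over the 4 times, REST cKO minus WT was -0.22 (standard error 0.230). Without WT day 3 replicate 5 the day 3 values were -0.32 against WT sham, -0.73 between the genotypes and -0.24 for the interaction. No p-value was computed for the balance.

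With the 3 *Klf4* values changed, the interaction at day 1 was 1.19 (standard error 0.795). The differences of REST cKO from its sham were then 0.50 (standard error 0.604), -0.68 (0.568) and 0.01 (0.588) on days 1, 3 and 7, and REST cKO minus WT sham was -0.29 (0.594). The day 7 interaction was -0.32 and the difference of all SCI groups from sham -0.15 (standard error 0.302), and the averaged genotype difference was -0.14 (0.283). REST cKO sham ran from -0.34 to 1.46 and REST cKO day 3 from -0.63 to 0.75, so that at day 3 the genotypes overlapped.

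Many of these values also depended on single libraries. The mean of WT sham rests in part on replicate 3, at 1.77, and without it the WT differences from sham were -0.37, -0.07 and 0.66 on days 1, 3 and 7, and that between the sham groups was -0.24. The WT difference at day 7 was 0.92 without day 7 replicate 4 and -0.08, with its direction turned, without replicate 12, and without replicate 12 the difference between the genotypes at day 7 was -0.05. In REST cKO the day 7 difference was 0.06 without sham replicate 18 and 0.65 without day 7 replicate 13, and the day 3 difference was -0.36 without sham replicate 23. At day 1, leaving out REST cKO replicate 19 gave 0.45 against sham and 0.60 against WT. The interactions at days 3 and 7 both changed sign on leaving out 1 library, with ranges of -0.45 to 0.05 and -0.73 to 0.33, as did the difference of all SCI groups from sham, from -0.16 to 0.13. The averaged genotype difference ran from -0.32 to 0.02, and its sign turned without WT day 7 replicate 12. The interaction at day 1 ran from 1.14 to 1.79.

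**Figure D2:**
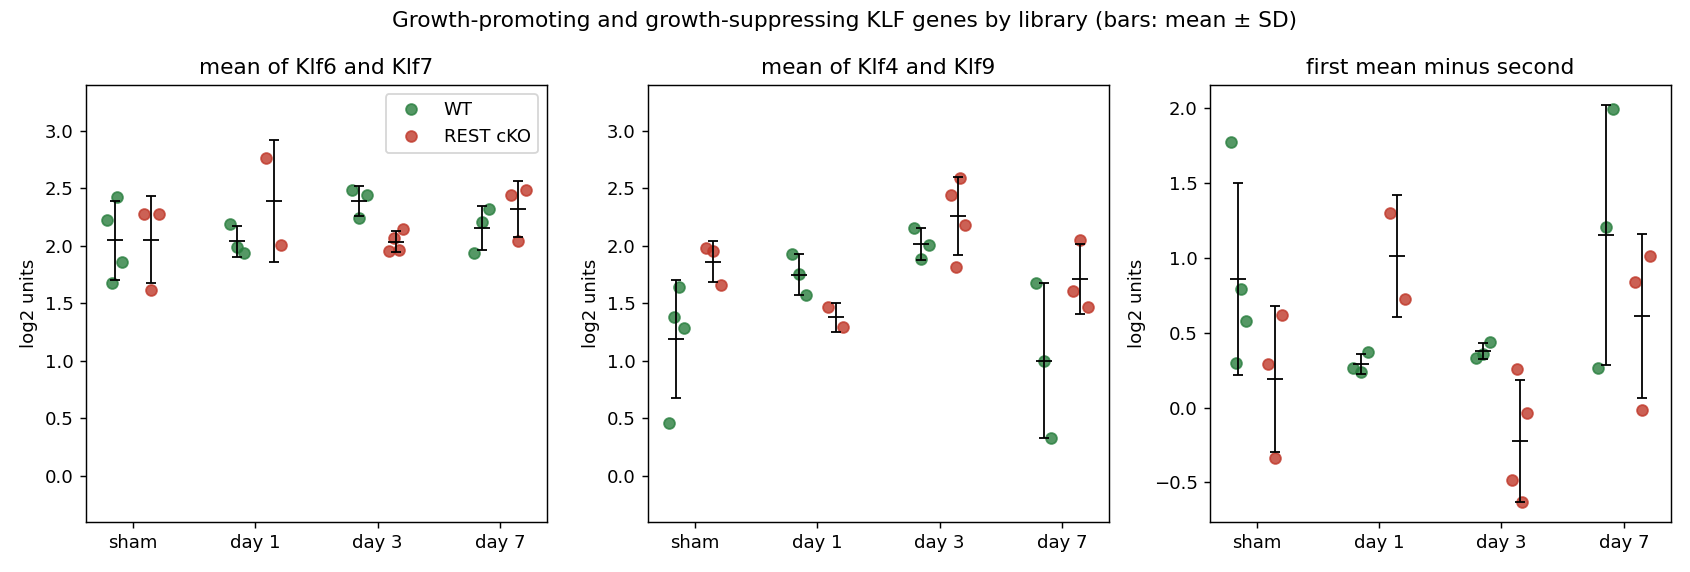
Means of *Klf6* and *Klf7* (left), of *Klf4* and *Klf9* as deposited (middle), and their difference (right) by time and genotype, each point 1 library and bars at the mean ± SD, in log2 units. The difference lies at 0.72 and 1.30 in REST cKO at day 1 against 0.24 to 0.37 in WT, and at -0.63 to 0.25 against 0.33 to 0.43 at day 3.

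None of the 6 pairs of growth-related members had a correlation that passed an adjusted p of 0.1. Over the 25 libraries *Klf6* and *Klf7* had a Pearson r of -0.393 (permutation p = 0.0516, adjusted p = 0.310 over 6 pairs) and a Spearman rho of -0.356 (permutation p = 0.0811, adjusted p = 0.486). The r was -0.368 without the 2 libraries farthest from the median of *Klf6*, -0.457 within batch 1 (permutation p = 0.183, n = 10) and 0.0758 within batch 2 (permutation p = 0.833, n = 10). Batch 3 held 5 libraries, too few for a value. After subtracting group means the r was -0.395 (permutation p = 0.0477, adjusted p = 0.286), with -0.434 and -0.0555 within batches 1 and 2, so the sign in batch 2 differed between these calculations.

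*Klf4* and *Klf9* had an r of 0.0995 (permutation p = 0.636, rho -0.0362, p = 0.865), *Klf6* and *Klf4* -0.0989 (permutation p = 0.639, rho -0.113, p = 0.587), *Klf6* and *Klf9* -0.0177 (permutation p = 0.932, rho -0.0185, p = 0.930), *Klf7* and *Klf4* 0.0496 (permutation p = 0.815, rho 0.0538, p = 0.798) and *Klf7* and *Klf9* -0.181 (permutation p = 0.388, rho -0.202, p = 0.334). The adjusted permutation p of r was 0.932 for each of these 5 pairs. Without the 2 libraries farthest from the median of the first gene, the r values were 0.0585, -0.0643, 0.000626, -0.130 and -0.0840 in the same order. Within batches 1 and 2 they were 0.0596 and 0.202, -0.299 and -0.107, -0.0897 and 0.0845, 0.359 and -0.176, and -0.0551 and -0.566 (n = 10 each, lowest permutation p = 0.0867). With the 3 values changed the r of *Klf4* was 0.135 with *Klf9*, -0.284 with *Klf6* and 0.180 with *Klf7* (adjusted permutation p = 0.624, 0.506 and 0.587).

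Among all genes, those most alike to *Klf6* in their course over the 25 libraries were *Cetn3* (r = 0.799), *Dnajb1* (r = 0.784) and *Napg* (r = 0.723). The closest to *Klf7* were *Armc3* (r = 0.672), *Lsm2* (r = 0.665) and *Bcl2l1* (r = 0.660), and to *Klf9* *Rab3a* (r = 0.748), *Syt1* (r = 0.703) and *Rpl41* (r = 0.680). For *Klf4* as deposited they were *Ubxn2b* (r = 0.708), *Rer1* (r = 0.689) and *Tsc22d1* (r = 0.684). None of the 12 is a KLF, and *Syt1* is on the list of neuronal markers. These are the highest among all genes tested, over libraries that share groups and batches, and are given as a description. Among the members themselves the highest r was that of *Klf6* with *Klf13*, at 0.469, and the lowest those of *Klf3* with *Klf9*, at -0.444, and *Klf7* with *Klf13*, at -0.428.

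*Klf2*, known as a flow-responsive factor of endothelial cells and of quiescent lymphocytes, had the largest fitted differences of the 8. In WT it was -0.53, -0.58, -1.64 and 1.17 in sham, 0.66, 0.35 and 1.61 at day 1, 2.18, 0.85 and 2.10 at day 3, and 1.55, 1.82 and 1.72 at day 7. Only the day 7 libraries lay above all sham libraries, since sham replicate 17 stood at 1.17. In REST cKO it was 2.04, -1.43 and 0.98 in sham, 1.33 and 1.39 at day 1, -3.14, 0.58, 2.16 and -1.59 at day 3, and 1.70, -1.53 and 1.28 at day 7. The libraries of each of these groups but day 1 spread over more than 3 units.

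The difference of *Klf2* from WT sham was 3.03 at day 3 (standard error 1.15, unadjusted p = 0.0138, adjusted p = 0.629 from limma) and 2.56 at day 7 (standard error 1.04, unadjusted p = 0.0209, adjusted p = 0.602). Within batches 1 and 2 it was 2.73 and 1.09 at day 3, and 2.24 and 1.96 at day 7. REST cKO minus WT at day 3 was -2.97 (standard error 1.10, unadjusted p = 0.0122, adjusted p = 0.680), with -5.31, 0.520 and -3.69 within batches 1, 2 and 3, so the sign differed between batches. Without WT day 3 replicate 5 the WT difference at day 3 was 2.70 and that between the genotypes -2.62 (adjusted p = 0.922 and 0.909). The interaction at day 3 was -4.94 (standard error 1.79, unadjusted p = 0.0104, adjusted p = 0.950), and -4.68 without that library (adjusted p = 0.917). Without the 2 sequencing components in the model it was -3.13. The residual SD of *Klf2* was 1.42, higher than that of 69.9% of genes.

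Endothelial markers are given beside *Klf2* and *Klf4*, and 0 of them were called in any comparison. The mean of the 10 endothelial genes was 1.16 to 1.74 in WT sham, 1.62 to 2.07 at day 1, 1.68 to 2.84 at day 3 and 1.72 to 2.00 at day 7, against 1.63 to 2.58 in REST cKO sham and 2.01 to 2.41 at day 3. On each of days 1, 3 and 7, 2 of the 3 WT libraries exceeded every WT sham library, and WT day 3 replicate 5 alone exceeded every sham library of both genotypes. In the fit of WT day 3 against sham, 8 of 10 endothelial markers were positive (median 0.79), as were 7 of 7 neuronal (0.74) and 5 of 6 astrocytic markers (1.02), with 3 of each list higher at an unadjusted p under 0.05, and 1 astrocytic marker lower. Over all genes 5035 of 9931 were positive. In WT at day 7 against sham, 9 of 10 endothelial (median 0.41) and 4 of 6 astrocytic markers (0.52) were positive. So were 7 of 10 oligodendrocytic (0.42), 4 of 7 neuronal (0.01) and 5 of 10 microglial markers (0.01), against 4358 of 9931 genes. For the interaction at day 3, 2 of 10 endothelial (median -0.93), 0 of 7 neuronal (-1.65) and 1 of 6 astrocytic markers (-1.28) were positive, against 5085 of 9931 genes, and 3, 3 and 2 of them were lower at that p. Of the microglial markers 9 of 10 were positive there (median 0.33), 2 of them at that p. In a sorted population, more cells of a type and more RNA per cell cannot be told apart. The part of these marker lists in the values of *Klf2* and *Klf4*, and of *Klf6* in WT at day 7, was not tested.

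**Figure D3:**
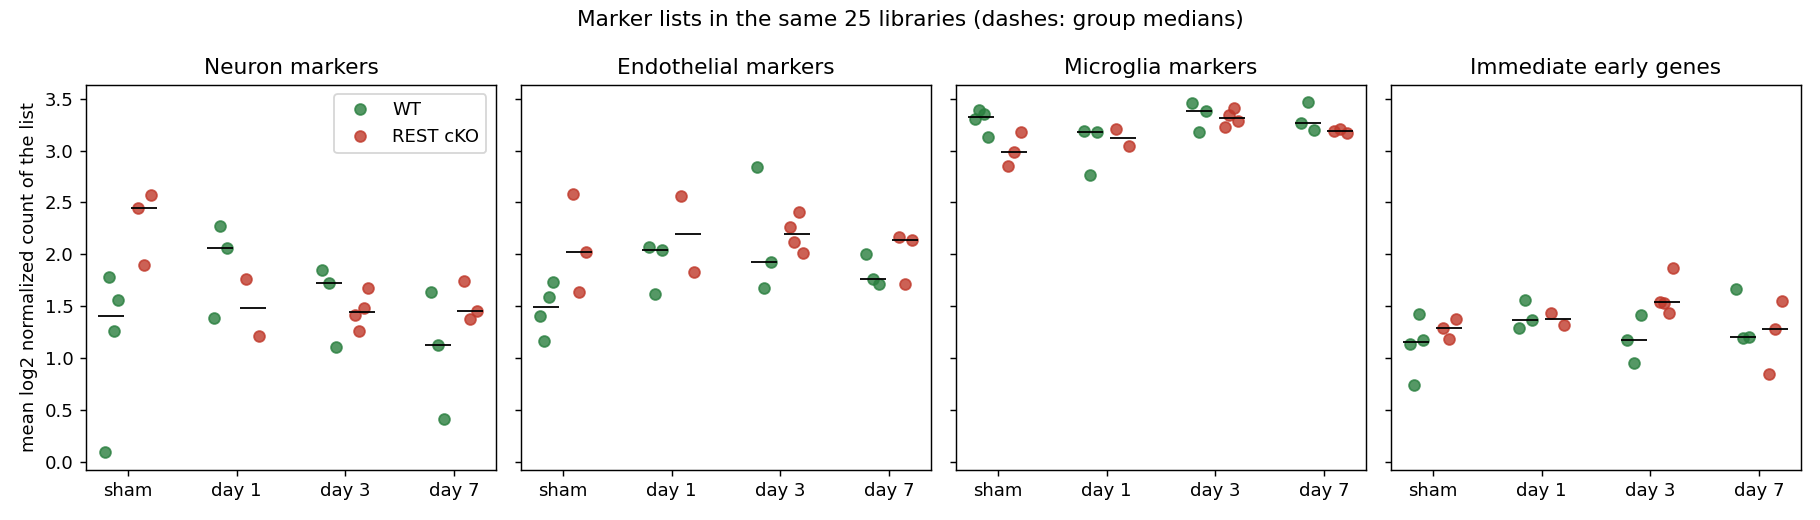
Mean log2 normalized count of 7 neuronal, 10 endothelial and 10 microglial markers and of 16 immediate early genes by time and genotype, each point 1 library and dashes at group medians. Endothelial markers are lowest in WT sham, at 1.16 to 1.74, and microglial markers lie between 2.77 and 3.46 in all 25 libraries.

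*Klf3*, a repressor that recruits the corepressor CtBP, was 1.18 ± 0.898 (SD, n = 25) and ran from -0.60 to 2.67. Its fitted differences between pairs of groups ran from -1.49 (WT day 1 minus sham) to 1.35 (REST cKO minus WT at day 1). Their unadjusted limma p-values were 0.0651 and 0.186, and the groups overlapped in every pair. The interaction of *Klf3* at day 1 was 1.67 (standard error 1.14). *Klf10*, an early response gene of TGF-beta signalling, was 0.45 ± 1.08 (SD, n = 25) and ran from -2.77 to 2.23, both extremes in WT at day 3. Its differences between pairs of groups lay between -0.83 and 0.74, all with overlap, and its interaction at day 7 was -1.25 (standard error 1.56).

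*Klf13*, which represses transcription through Sin3 corepressors and belongs to the same subfamily as *Klf9*, was among the steadiest members, at 2.15 ± 0.445 (SD, n = 25), and 10.8% of genes had a lower residual SD. It was 2.09, 1.65, 2.11 and 1.55 in WT sham and 2.50, 2.19 and 2.39 in REST cKO sham. Every REST cKO sham library stood above every WT sham library, by 0.77 in the fit (standard error 0.442, adjusted p = 0.771 from limma), and by 0.626 and 0.363 within batches 1 and 2. Without the sequencing components it was 0.51. Several marker lists separated the sham groups as well. Library means in REST cKO and WT sham were 1.90 to 2.57 against 0.09 to 1.78 for neuronal and 1.80 to 2.42 against 0.84 to 1.07 for astrocytic markers. All 7 neuronal, 6 astrocytic and 10 endothelial markers had positive differences, with medians of 1.08, 1.03 and 0.60, and 10 of 10 microglial markers had negative ones, with a median of -0.28. Their part in the sham differences of *Klf13* and *Klf4* was not tested. After injury *Klf13* ran from 1.09 to 2.74 in WT and from 1.71 to 2.85 in REST cKO, and the genotypes overlapped at each day.

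**Figure D4:**
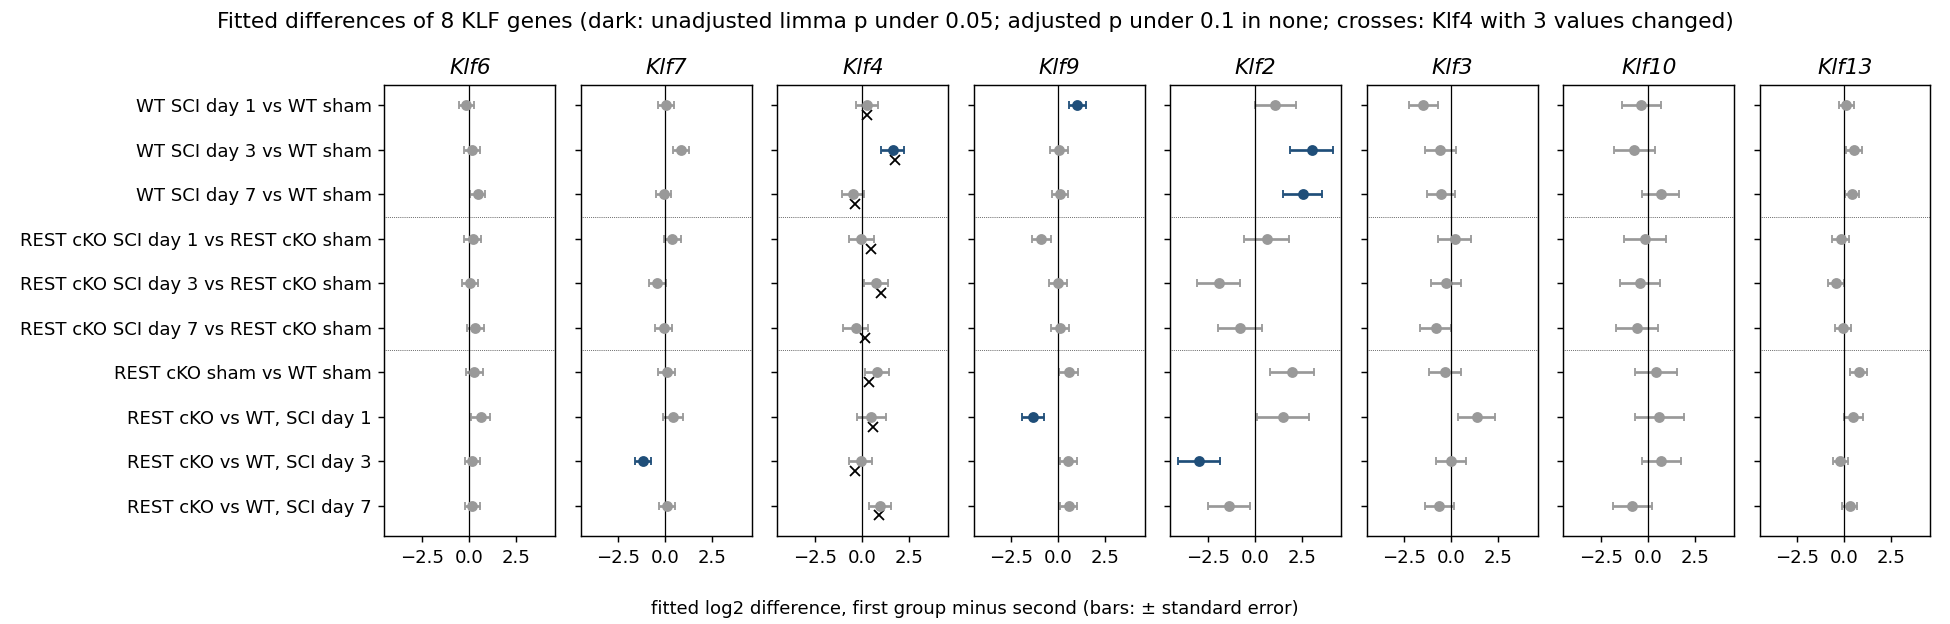
Fitted log2 differences of the 8 KLF genes in the 10 comparisons of a pair of groups, first group minus second, with bars of ± 1 standard error and dark points where the unadjusted limma p is under 0.05. The largest are those of *Klf2*, at 3.03 for WT day 3 and -2.97 between the genotypes at day 3, and crosses show *Klf4* with 3 values changed.

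The counts of members by comparison stand beside the shares of all genes. In WT, 0 members passed the adjusted test at days 1, 3 and 7, against 0%, 0.0101% and 0% of all genes. An unadjusted p under 0.05 was found for 1, 2 and 1 members, all higher than in sham, against 6.43%, 6.9% and 6.89% of genes in either direction. Libraries did not overlap with sham for 0, 1 and 2 members, against 7.02%, 6.54% and 6.87% of genes. The median difference of the members was 0.07, 0.35 and 0.25, and that of all genes 0.12, 0.01 and -0.12.

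In REST cKO, 0 members passed at days 1, 3 and 7 by adjusted p (0%, 0.0201% and 0% of genes) or by unadjusted p (5.29%, 4.65% and 5.67% of genes). Groups did not overlap for 1, 1 and 0 members, against 20.4%, 6.69% and 10.7% of genes, and the count at day 3 is *Klf4* as deposited. The median difference was 0.07, -0.34 and -0.20 over the members and 0.29, 0.03 and 0.07 over all genes.

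Between the genotypes, 0 members passed by adjusted p before injury or on days 1, 3 and 7, against 0.0302%, 0%, 0% and 0% of genes. By unadjusted p 0, 1, 2 and 0 members did, all lower in REST cKO, against 6.91%, 3.81%, 6.37% and 9.95% of genes. Groups did not overlap for 2, 3, 1 and 0 members, against 7.86%, 18.6%, 7.59% and 12.4% of genes. Of the 2 in sham, *Klf4* overlapped once its values were changed. For the interaction at days 1, 3 and 7, 0 members passed by adjusted p (0%, 0% and 0.0201% of genes) and 1, 1 and 0 by unadjusted p (5.77%, 5.15% and 6.35% of genes). The injury comparisons of a genotype share their sham libraries, and the comparisons at a day share the libraries of that day.

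Genes around the KLFs were given by lists. Of 7 other KLF genes only *Klf11* was in the table, with values from -3.02 to 2.55 and a residual SD of 1.91. Of 9 Sp factors, relatives that bind the same GC boxes, 4 were measured, and 0 were called in any of the 15 comparisons by adjusted p. For injury over all times their median difference was 0.45, with 4 of 4 positive against 5494 of 9931 genes, and *Sp1* had the lowest p (0.46, standard error 0.215, adjusted p = 0.807 from limma). For genotype the median was -0.06, and *Sp4* had the lowest p (0.64, standard error 0.656, adjusted p = 0.857). For injury 9 of 10 oligodendrocytic (median 0.92), 4 of 6 astrocytic (0.49) and 7 of 10 endothelial markers (0.17) were positive. So were 3 of 7 neuronal (-0.07) and 5 of 10 microglial markers (-0.00117). The part of these markers in the injury differences of the Sp factors and, below, of *Gap43* was not tested. Of 10 cofactors of KLFs, such as the Sin3 and CtBP corepressors and the acetyltransferase p300, 9 were measured and 0 called. Their medians were 0.08 and -0.18, with the lowest p for *Ep300* (0.32, standard error 0.225, adjusted p = 0.905) and *Kat2b* (-1.08, standard error 0.647, adjusted p = 0.676).

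Among 13 genes of axon growth, 11 were measured and 0 called by adjusted p, with medians of 0.12 for injury and 0.44 for genotype. *Gap43*, a growth cone protein, differed by 1.10 after injury (standard error 0.361, adjusted p = 0.639 from limma), and *Jun*, a transcription factor of the injury response, by 0.60 between the genotypes (standard error 0.151, adjusted p = 0.391). For genotype 10 of the 11 differences were positive, against 6226 of 9931 genes, and 4 had an unadjusted p under 0.05, against 8.53% of genes, with a median of 0.14 over all genes. In the same comparison 7 of 7 neuronal markers (median 0.31), 6 of 6 astrocytic (0.51) and 10 of 10 endothelial markers (0.26) were positive, and their part in the result was not tested. Of 10 genes of the response to glucocorticoids and thyroid hormone, which induce *Klf9*, 9 were measured and 0 called. Their medians were 0.12 and 0.09, and the lowest p were those of *Ddit4* for injury (0.51, standard error 0.197, adjusted p = 0.724) and the thyroid receptor gene *Thra* for genotype (0.66, standard error 0.262, adjusted p = 0.525). At day 1 in WT, where *Klf9* was highest, this list had a median difference of 0.69 from sham, with 7 of 9 positive and 2 with an unadjusted p under 0.05. At day 1 in REST cKO, where *Klf9* was lowest, 8 of 9 were positive against sham (median 0.21), as were 6252 of 9931 genes (median 0.29), and the mean level of the list was 1.73 and 1.85, with the highest median of the 8 groups (1.79, and 1.56 in WT at day 1). For WT at day 1, over all genes the median was 0.12, with 5556 of 9931 positive and 6.43% under that p. Medians of cell markers there were 2.05 for oligodendrocytic (10 of 10 positive), 0.99 for astrocytic (6 of 6), 0.94 for neuronal (6 of 7), 0.18 for endothelial (6 of 10) and -0.30 for microglial markers (0 of 10), and their part in the result was not tested.

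Of 17 immediate early genes, which dissociation and sorting of cells can induce, 16 were measured and 0 called, with medians of 0.05 and 0.12. The lowest p were those of *Egr2* for injury (1.37, standard error 0.710, adjusted p = 0.857 from limma) and again of *Jun* for genotype. The library mean of this list was 0.74 to 1.43 in WT sham and 0.95 to 1.42 at day 3, and 1.18 to 1.38 in REST cKO sham and 1.44 to 1.87 at day 3. The 4 REST cKO libraries of day 3, where *Klf4* was high, thus lay above the sham libraries of that genotype in this list, while in the fit 9 of 16 of its genes were positive (median 0.16, 0 with an unadjusted p under 0.05), against 5123 of 9931 genes. Microglial markers separated the same groups, at 3.22 to 3.41 on day 3 against 2.85 to 3.18 in sham, with 10 of 10 differences positive, a median of 0.33 and 3 with an unadjusted p under 0.05. Neuronal and astrocytic markers had 0 of 7 and 0 of 6 positive there, with medians of -0.73 and -0.49. The part of these lists in the result was not tested. By adjusted p, 0 of the measured markers of neurons, deep-layer neurons, endothelial cells, microglia, astrocytes and oligodendrocytes were called in any comparison.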

How the data were processed

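The authors deposited 1 table of log2 normalized counts, made by aligning reads to mm10 with STAR, quantifying with Salmon and tximport, scaling with DESeq2, removing batch effects with RUV and regressing out 2 components of sequencing metrics. The deposited table also holds log2 fold changes and p-values of the authors' own comparisons, which were not used. Read totals are not in it, so the depth per library is unknown. Of 9955 rows, 24 (0.241%) had no symbol, which left 9931 genes. Libraries were grouped by the labels. Whether they came from separate mice is not stated in the labels, and p-values measure the spread between libraries.

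All genes were fitted with limma 3.58.1 (R 4.3.3): 8 group means and the 2 components over 25 libraries, 15 residual degrees of freedom, moderated variances with a trend, and Benjamini-Hochberg adjustment over 9931 genes, at a threshold of 0.1. The fit was tested on simulated data. Correlations used permutation tests with 100000 resamples, two-sided (Python 3.11.15, numpy 2.4.6).

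The genes, gene lists and tests were chosen with earlier results of these data known. Named were all members, with a fitted difference for *Klf4*, *Klf6*, *Klf7* and *Klf9* in the 2 averaged comparisons and for any member with an unadjusted p under 0.05 or no overlap, the 3 genes most alike to each of those 4, and the gene of lowest p in each list outside the cell markers. Other values of members were named after they were seen. Alternatives were no components, only the groups compared, terms for batch, sex or the share of values under -2, library weights, a minimum mean of 0, no trend, quantile normalization, a threshold of 0.05, deviations from group means and leaving out each library. The 3 changed *Klf4* values were an alternative chosen after seeing the data. Positions come from GENCODE M21 (GRCm38) and promoters from RefSeq (GRCm38.p6).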

Additional observations from a re-analysis of the deposited data

How the results depend on the processing

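The count of members called stayed at 0 in all 318 alternatives of the 15 comparisons, and the lowest adjusted p of a member in them was 0.314. Of 556 alternatives of the 24 named member differences, 539 kept direction and side of the threshold, and 17 turned the direction, all in averages over times. *Klf9* for all SCI groups against sham (0.05) was -0.000361 without components and with only the groups compared, -0.0965 with library weights, -0.0721 with quantile normalization, and ran from -0.155 to 0.192 on leaving out 1 library. *Klf6* (0.19) ran from -0.0372, without REST cKO sham replicate 18, to 0.487, and *Klf7* (0.11) from -0.0471, without REST cKO sham replicate 23, to 0.295. For REST cKO against WT, *Klf7* (-0.15) was 0.0308 with library weights and 0.0184 with a term for the share of values under -2, and *Klf9* (0.07) was -0.00110 with library weights and ran from -0.0618 to 0.206 on leaving out 1 library.

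Of 303 alternatives of the 15 growth balances, 300 moved the value by less than the residual SD of 0.534. Several balances, such as 0.38 for WT day 7 against sham, were smaller than this SD and could change sign within it. The count is thus no measure of whether their direction held. Leaving out 1 library, the balance of WT day 7 against sham ran from -0.0797 to 0.925, its interaction with genotype at day 7 from -0.726 to 0.330, and REST cKO against WT at day 7 from -1.10 to -0.0480. After subtracting group means, the r of *Klf4* with *Klf9* was -0.0152 and that of *Klf7* with *Klf4* -0.0751, opposite in sign to the values above. Within batches the sign also turned for *Klf7* with *Klf9* in batch 2 (0.0630) and with *Klf4* in batch 1 (-0.169), and for *Klf6* with *Klf7* in batch 2. The r of *Klf6* with *Klf4* was -0.251 (rho -0.362, permutation p = 0.0775, adjusted p = 0.242). The cause of these changes was not tested. The replicate numbers are only sample numbers and tell nothing of pairs, so no paired analysis was made. Batch, which groups share only in part, entered as a term, and turned no named member difference. Within batch 2 alone the sign did turn for *Klf9* in WT day 1 against sham and for *Klf2* between the genotypes at day 3. The table gives no depth per library, so what depth limits was not tested.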
